A study of Mus musculus with 6 samples.

Results

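The genes described here encode the subunits of the mitochondrial respiratory chain and the ATP synthase, together with the other transcripts of the mitochondrial genome. They were taken from the deposited count table by symbol, as every row that begins with Nduf, Uqcr, Cox4 to Cox8, Atp5 or mt-, or that is Sdha, Sdhb, Sdhc or Sdhd. The rule found 108 of 19251 genes. Of these, 93 are nuclear genes and 15 are mt- genes, of which 13 code for protein and 2 for ribosomal RNA. The nuclear genes comprised 38 subunits of complex I, 8 complex I assembly factors (Ndufaf1 to Ndufaf8), 4 subunits of complex II, 8 of complex III, 17 of complex IV, 17 of complex V and 1 pseudogene, Cox7c-ps1. Ndufa4 and Ndufa4l2 were counted with complex IV, where the Ndufa4 protein is found. The table uses older names for the ATP synthase (Atp5a1 for the alpha subunit, Atp5b for beta, Atp5g1 to Atp5g3 for subunit c), and Cyc1, Cycs and Atpif1 fall outside the rule.

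The study asked how intermittent fasting affects midbrain signalling in mice that model Parkinson's disease. RNA selected for poly(A) was sequenced from the substantia nigra of C57BL/6 mice whose genotype is labelled rAAV-A53T-aSynuclein, a recombinant adeno-associated virus carrying a mutant alpha-synuclein. Both diets carried this vector, so no contrast here concerns the vector itself, and the labels name neither its promoter nor its serotype. The 3 ad libitum libraries came from mice with constant food, and the 3 fasting libraries from mice deprived of food for 24 hours on 3 days per week, from 2 weeks after surgery and for 10 weeks. Mice of both diets were moved between cages every day. The labels do not say whether each library is a separate animal or how long after the last fast tissue was taken, so the tests below measure the spread between these samples.

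Complexes I to IV pass electrons from NADH and succinate to oxygen, and complexes I, III and IV pump protons that complex V uses to make ATP. Complex II is wholly nuclear, whereas complexes I, III, IV and V each combine nuclear subunits with subunits made from mitochondrial DNA. The mouse mitochondrial genome is transcribed as long precursors that are cut into single transcripts, and most of these receive short poly(A) tails. Dopamine neurons of the substantia nigra have a high demand for ATP, and inhibitors of complex I such as MPP+ and rotenone are toxic to them.

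Total counts lay between 42990234 and 48179706 per library, and levels are given as CPM, counts scaled to library size with TMM factors. The dopamine neuron markers fit the tissue label. Th, the rate-limiting enzyme of dopamine synthesis, was at 86.3, 92.6 and 236 CPM in ad libitum replicates 1 to 3 and at 105, 189 and 93.7 CPM in fasting replicates 1 to 3. The ad libitum libraries stood apart from each other in their cell markers. Ad libitum replicate 3 had the highest sum of 8 dopamine neuron markers, 1943 CPM against 717 to 1334 CPM elsewhere. Ad libitum replicate 2 had the highest sum of 7 oligodendrocyte markers, 18588 CPM against 9672 to 13646 CPM elsewhere, and of 7 cholinergic and hypothalamic markers, 589 CPM against 10.5 to 145 CPM. Ad libitum replicate 1 had the highest sum of 7 neuron markers, 5698 CPM against 3947 to 5168 CPM elsewhere. In a dissected tissue, fewer cells of a type and less RNA per cell cannot be told apart.

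Several sequences help to read the mitochondrial values, because the counts depend on poly(A) selection and on how reads are shared between overlapping genes. The last 30 bases of the 4 mt- genes with the smallest p-values are as follows (GRCm38, chrM, + strand), with the bases of the stop codon in capitals for the protein genes. The poly(A) tail is added at or near these ends.
mt-Rnr1, chrM:995-1024: aagcatactggaaagtgtgcttggaataat
mt-Rnr2, chrM:2646-2675: atacgtacaccctctaacctagagaaggtt
mt-Nd2, chrM:4922-4951: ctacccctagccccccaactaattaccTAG
mt-Nd4, chrM:11515-11544: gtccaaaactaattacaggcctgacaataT
The annotated sequence of mt-Nd4 stops after the T of its stop codon. In such genes the tail supplies the missing A residues. Of 13 mt- protein genes, 10 have a complete stop codon in the annotation and 3 (mt-Nd4, mt-Co3 and mt-Cytb) do not.

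Neighbouring genes also share bases. mt-Atp8 and mt-Atp6 overlap by 43 bases at chrM:7927-7969 on the + strand, where the capitals mark the start codon of mt-Atp6 and the last 3 bases are the stop codon of mt-Atp8.
mt-Atp8/mt-Atp6 overlap: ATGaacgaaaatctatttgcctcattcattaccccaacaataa
mt-Nd4l and mt-Nd4 overlap by 7 bases. Both pairs remain joined as single transcripts in mammals, so the split of their reads between gene rows is a matter of the counting. mt-Nd6 is the only mt- protein gene on the opposite strand, and 12 of 13 lie on the + strand. Several mt- genes also have near-identical copies annotated in the nuclear genome. Between 98.1% and 100% of the 31-base words of mt-Co2, mt-Co3, mt-Atp6, mt-Nd4l and mt-Nd3 occur in transcripts of other genes, as do 63.9% of those of mt-Co1 and 62.8% of those of mt-Nd4. For mt-Rnr1, mt-Rnr2 and mt-Nd2 these shares are 0.0%, 2.7% and 13.5%. Values of the first 7 genes are therefore less certain than those of the last 3. One such copy in the table, Gm29216, which shares sequence with mt-Co1, had 18081 to 27447 counts per library and a log2 fold change of -0.00. Other copies in the table had few counts. These were Gm13340 (mt-Co1) with 37 to 57, Gm13341 (mt-Co2) with 8 to 14, Gm28437 (mt-Co3) with 0 to 177 and Gm28438 (mt-Nd3) with 0 to 78.

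No respiratory chain gene passed the test between diets. By edgeR's quasi-likelihood test with Benjamini-Hochberg adjustment over all 19109 genes tested, 0 of 108 were called at an adjusted p below 0.05, against 0.497% of all genes (95). At an unadjusted p below 0.05, 8 of 108 (7.41%) were lower under fasting and 0 higher, while 20.4% of all genes had such a p, 11.6% lower and 8.74% higher. These 8 were mt-Rnr1, mt-Nd2, mt-Rnr2, mt-Nd4, Ndufa4l2, Atp5e, Uqcr11 and Ndufb2. limma-voom also called 0 of 108, with 0.167% of all genes called. DESeq2 called 3 of 108, all lower under fasting (mt-Rnr1, mt-Rnr2 and mt-Nd2), where it called 4.51% of all genes lower and 2.9% higher. Without ad libitum replicate 1, edgeR called 5 members: the same 3 mt- genes lower, and Ndufs3 and Ndufa10 higher. The count of all genes called then moved from 95 to 1187.

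The 2 mitochondrial ribosomal RNAs had the largest log2 differences of the 15 mt- genes. mt-Rnr1 (ENSMUSG00000064337, chrM:70-1024) encodes the 12S RNA of the small mitochondrial ribosomal subunit. Its level was 2602, 2972 and 2797 CPM in ad libitum replicates 1 to 3, and 1985, 2131 and 2150 CPM in fasting replicates 1 to 3. All fasting libraries lay below all ad libitum libraries. The log2 fold change, fasting minus ad libitum, was -0.42 (SE 0.07, 95% interval -0.59 to -0.25), a level 25.1% lower, with an edgeR adjusted p of 0.0599 and a DESeq2 adjusted p of 2.09e-05. mt-Rnr2 (ENSMUSG00000064339, chrM:1094-2675) encodes the 16S RNA of the large subunit. It was at 5354, 5887 and 5637 CPM ad libitum and 4676, 4839 and 4867 CPM under fasting, again without overlap. The log2 fold change was -0.23 (SE 0.06), with an edgeR adjusted p of 0.106 and a DESeq2 adjusted p of 0.00962. Without ad libitum replicate 1 the edgeR adjusted p-values of mt-Rnr1 and mt-Rnr2 were 0.0188 and 0.0373. In the other fits that left out a library they ran from 0.0706 to 0.290 and from 0.140 to 0.347.

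**Figure D1:**
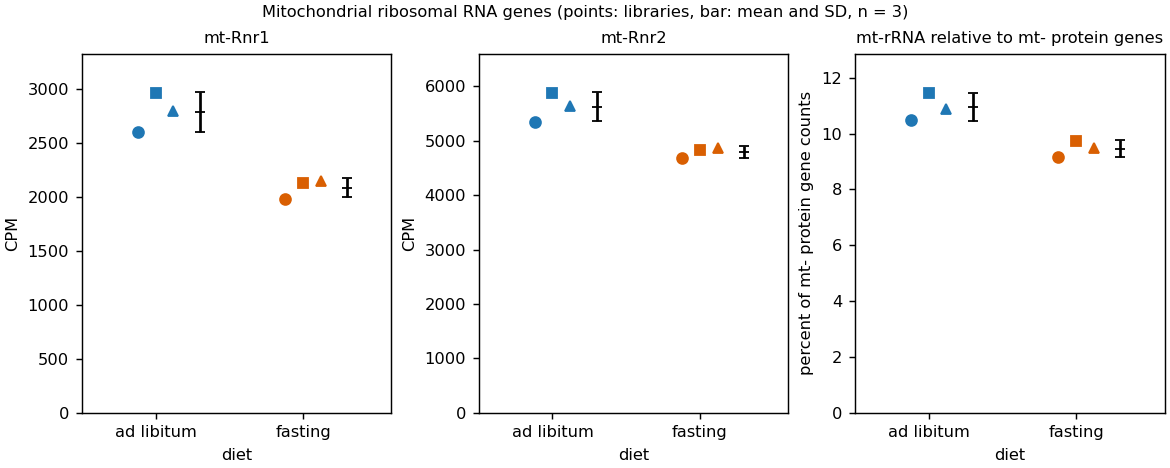
Levels of mt-Rnr1 and mt-Rnr2 in CPM, and the counts of both as a percentage of the counts of the 13 mt- protein genes, for each library by diet. Points are libraries (circle, square and triangle for replicates 1, 2 and 3) and bars the mean and SD of 3; in each panel the 3 fasting libraries lie below the 3 ad libitum libraries.

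Set against the counts of the messenger RNAs of the same genome, the counts of the ribosomal RNAs were also lower under fasting. Counts of mt-Rnr1 and mt-Rnr2 together came to 10.5%, 11.5% and 10.9% of those of the 13 protein genes ad libitum, and to 9.15%, 9.74% and 9.50% under fasting. The ratio of mt-Rnr2 to mt-Rnr1 was 2.06, 1.98 and 2.01 ad libitum and 2.36, 2.27 and 2.26 under fasting. Within each library both ratios are free of scaling between libraries, and the diets did not overlap in either. They reuse the counts given above and are not separate evidence. The RNA was selected for poly(A), so the amount of ribosomal RNA and its capture by the selection cannot be told apart. As background, both ribosomal RNAs are cut from the part of the precursor nearest its promoter.

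Among the 7 mt- subunits of complex I, which form its membrane arm with nuclear subunits, the differences ran from -0.20 to 0.00. mt-Nd2 (ENSMUSG00000064345, chrM:3914-4951) was at 4201, 4282 and 4347 CPM ad libitum and 3735, 3624 and 3772 CPM under fasting. The diets were separated by more than the range within either. Its log2 fold change was -0.20 (SE 0.05), with an edgeR adjusted p of 0.105, 0.00272 by DESeq2, and 0.0495 by edgeR without ad libitum replicate 1. mt-Nd4 was at 6851, 7475 and 7931 CPM ad libitum and 6597, 6379 and 6711 CPM under fasting, a log2 fold change of -0.18 (SE 0.07) with an edgeR adjusted p of 0.220. mt-Nd3 and mt-Nd4l had log2 fold changes of -0.15 and -0.14, and mt-Nd1 one of -0.04 (SE 0.05). mt-Nd5, the most distal of them on the + strand, had 4971, 5222 and 5253 CPM ad libitum and 5201, 4951 and 5328 CPM under fasting. Its diets overlapped fully, and its log2 fold change was 0.00 (95% interval -0.14 to 0.14).

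mt-Nd6, on the opposite strand, had the lowest level of the mt- genes, at 68.7, 85.8 and 55.9 CPM ad libitum and 63.6, 71.3 and 74.3 CPM under fasting. The ad libitum libraries spanned the fasting libraries on both sides. With all libraries the log2 fold change was -0.01 (SE 0.16), and without ad libitum replicate 2 it was 0.16. The sources used here do not say whether counting used strand, so reads from the opposite strand at this locus cannot be told apart.

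The mt- subunits of the other complexes had log2 fold changes from -0.13 to -0.03. mt-Co1, which holds the oxygen-reducing centre of complex IV, was at 20987, 20284 and 20895 CPM ad libitum and 20427, 19718 and 20104 CPM under fasting. These ranges overlapped, with a log2 fold change of -0.05 (SE 0.05, 95% interval -0.17 to 0.08). mt-Co2, which accepts electrons from cytochrome c, stood at -0.13 (SE 0.06) and mt-Co3 at -0.06 (SE 0.05). mt-Cytb, the mitochondrial subunit of complex III, stood at -0.09 (SE 0.06). mt-Atp6 and mt-Atp8, subunits of the proton channel side of ATP synthase, stood at -0.07 and -0.03 (SE 0.05 and 0.06). For mt-Co2, mt-Co3, mt-Cytb and mt-Atp6 the diets did not overlap, although none had an unadjusted p below 0.05.

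**Figure D2:**
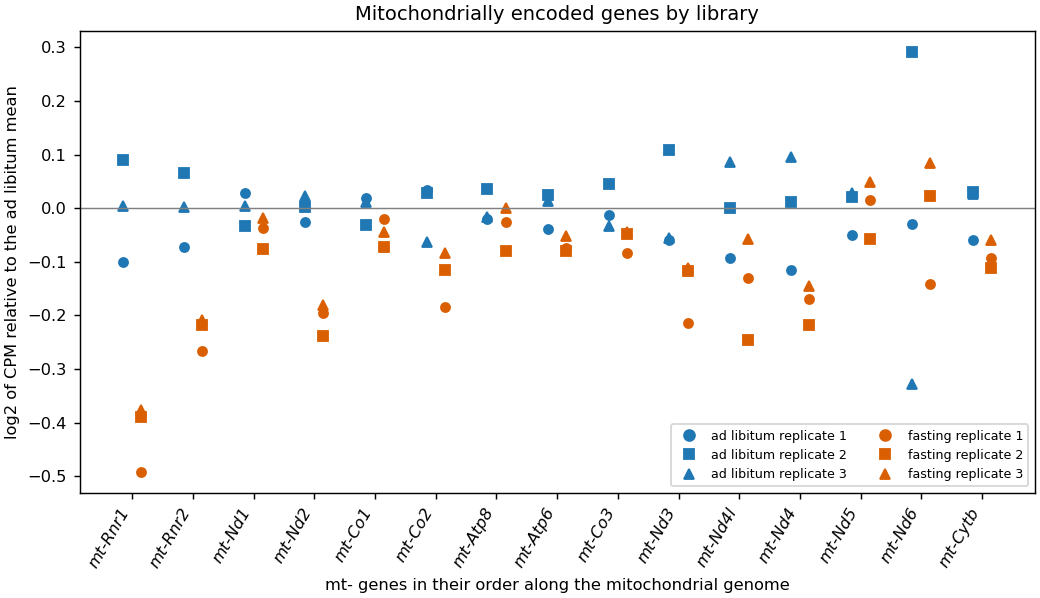
Log2 of CPM relative to the ad libitum mean for the 15 mt- genes in their order along the mitochondrial genome, by library (colour for diet, marker for replicate). The fasting libraries lie lowest at mt-Rnr1 and mt-Rnr2 and mix with the ad libitum libraries at mt-Nd1, mt-Co1, mt-Atp8, mt-Nd4l, mt-Nd5 and mt-Nd6.

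As a group, 14 of 15 mt- genes had a log2 fold change below 0. The median was -0.09, beside -0.00 and 50.9% below 0 over all genes tested. The median over the 13 protein genes was -0.07. In 9 of 15 mt- genes all fasting libraries lay below all ad libitum libraries. Of all 108 members 13 were so separated, beside 15% of all genes, and 1 (Ndufv3) in the opposite direction, beside 12.5%. The mt- genes took 8.23%, 8.65% and 8.68% of all counts ad libitum and 7.87%, 7.90% and 8.14% under fasting. The means were 8.52% ± 0.25 (SD, n = 3) and 7.97% ± 0.15 (SD, n = 3), a difference of -0.55 percentage points, and the highest fasting library lay just under the lowest ad libitum library. An exact permutation test of 3 libraries against 3 cannot give a p below 0.1, and no p is given for this sum.

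Markers of glial cells differed between diets as well. All 7 oligodendrocyte markers and all 7 microglia markers were lower under fasting, with medians of -0.50 and -0.61, and edgeR called 1 of these, the microglia marker C1qa (adjusted p 0.0403), named after its value was seen. DESeq2 called all 7 microglia markers (adjusted p from 1.91e-10 to 0.0356) and 6 of 7 oligodendrocyte markers, each lower. Their sums ran from 13645 to 18588 CPM ad libitum and 9672 to 12113 CPM under fasting for oligodendrocytes, and from 330 to 453 CPM and 261 to 267 CPM for microglia. Of 6 astrocyte markers 5 were lower, with a median of -0.24, and DESeq2 called 2, Gfap (-1.51) and Aqp4 (-1.01), while Slc1a3 stood at 0.18. The astrocyte sums were 2029 to 2922 CPM ad libitum and 1929 to 1982 CPM under fasting. No marker of these 3 lists was at 0 in any library. Gfap, Aqp4 and Slc1a3 were named after their values were seen. Of 7 neuron markers 2 were lower, with a median of 0.14, and their sums overlapped (3947 to 5698 CPM ad libitum, 4823 to 5168 CPM under fasting). The part of these shifts in the mt- values was not tested.

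Levels per kilobase of transcript put the mt- genes far above their nuclear partners. mt-Co1 was highest at 13206 CPM per kb, followed by mt-Atp6 at 11300 and mt-Atp8 at 11181 CPM per kb. Their order is uncertain. mt-Atp6 and mt-Atp8 lie on a joined transcript, and mt-Co1 and mt-Atp6 share most of their words with other genes. The highest nuclear members were Atp5b at 567, Cox4i1 at 420 and Atp5a1 at 339 CPM per kb. mt-Nd6, at 135 CPM per kb, lay within the nuclear range. Median levels were 64.0 CPM per kb for complex I subunits, 60.4 for complex II, 90.9 for complex III, 148 for complex IV and 115 for complex V. The complex I assembly factors, which help to build the complex but are not part of it, had a median of 12.6 CPM per kb. Together the 93 nuclear members took 0.945%, 0.876% and 0.853% of counts ad libitum and 0.866%, 0.931% and 0.873% under fasting, with overlapping diets.

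The nuclear members differed little between diets. Their median log2 fold change was -0.03, with 64 negative and 29 positive. The median absolute value was 0.052, against 0.152 for all genes tested, and the median SE was 0.074 against 0.123. For 84 of 93 (90.3%) the 95% interval lay within -0.5 and 0.5, beside 51.7% of all genes, so larger changes were outside the interval for these genes. The members and all genes were not matched for level of expression, and the part of level in these contrasts was not tested. The lean to negative values rested on a single library. Without ad libitum replicate 1 the median was 0.01, with 40 negative and 53 positive, and no other library left out turned its sign.

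**Figure D3:**
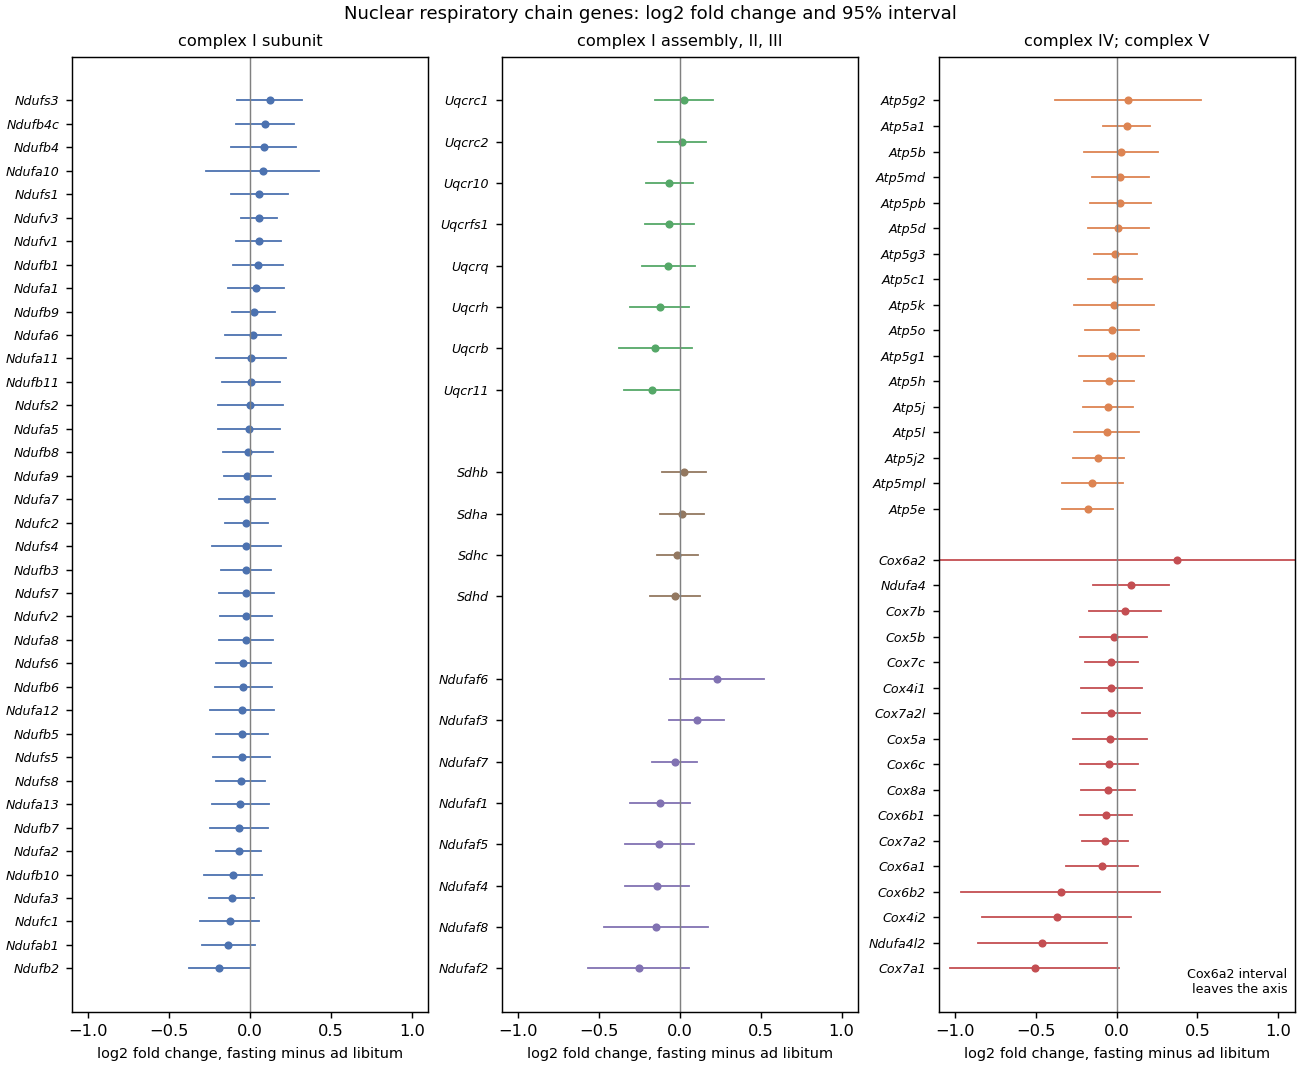
Log2 fold change with its 95% interval (edgeR, fasting minus ad libitum) for the nuclear genes other than the pseudogene, by complex. The intervals of 4 genes (Ndufb2, Uqcr11, Ndufa4l2 and Atp5e) exclude 0, and those of the low-expressed complex IV genes Cox6a2, Cox6b2, Cox7a1 and Cox4i2 are the widest drawn.

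Ad libitum replicate 1 was the highest library for 60 of 93 nuclear members (64.5%), whereas it was highest for 17.1% of all genes. Ad libitum replicate 3 was the lowest for 39. The median deviation of the nuclear members from each gene's own mean, on the log2 scale, was 0.11, 0.02 and -0.07 in ad libitum replicates 1 to 3 and -0.05, 0.06 and -0.04 in fasting replicates 1 to 3. In each nuclear group ad libitum replicate 1 was highest and fasting replicate 2 second, as the plot of median deviations shows, and complex II was least spread. The mt- genes did not follow it, being highest in ad libitum replicate 2 at 0.07. Neuron marker sums were likewise highest in ad libitum replicate 1, but were lowest in ad libitum replicate 2, at 3947 CPM. In that library the median deviation by nuclear group ran from -0.04 in complex II to 0.05 in complex IV. The nuclear members took 0.876% of its counts, within the 0.853% to 0.945% of all libraries. The part of cell composition in this spread was not tested.

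**Figure D4:**
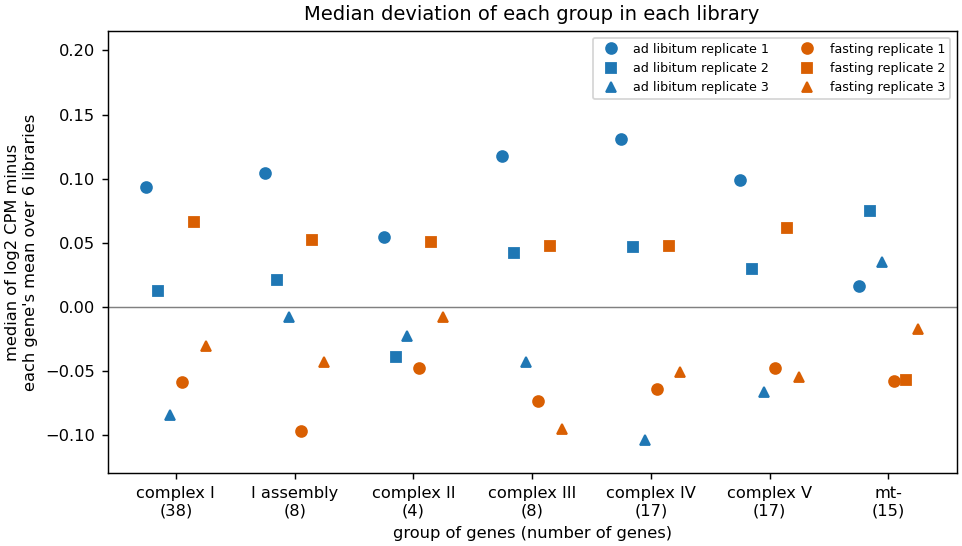
Median over the genes of each group of log2 CPM minus each gene's mean over the 6 libraries, by library (colour for diet, marker for replicate), with the number of genes in brackets. Ad libitum replicate 1 is highest in each nuclear group, while in the mt- group the 3 ad libitum libraries lie above the 3 fasting libraries.

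Of the 38 nuclear complex I subunits 24 were negative and 14 positive, with a median of -0.02, and 1 had an unadjusted p below 0.05. That gene was Ndufb2, an accessory subunit of the membrane arm, at 46.7, 42.0 and 44.8 CPM ad libitum and 36.7, 43.1 and 37.3 CPM under fasting (log2 fold change -0.19, SE 0.08, edgeR adjusted p 0.242). The diets overlapped through fasting replicate 2. Ndufab1, the mitochondrial acyl carrier protein, stood at -0.14 (SE 0.07). The core subunits of the electron-entry arm leaned the opposite way. Ndufv1, which binds NADH, was at 141, 130 and 129 CPM ad libitum and 140, 142 and 133 CPM under fasting (0.05, SE 0.06). Ndufs1, the largest iron-sulfur subunit, stood at 0.06 (SE 0.07).

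Ndufs3 and Ndufa10 depended on ad libitum replicate 1. Ndufs3, a core subunit, was at 75.9, 62.2 and 62.0 CPM ad libitum and 72.2, 72.9 and 72.6 CPM under fasting. The first ad libitum value lay above all fasting values and the other two below them. With all libraries the log2 fold change was 0.12 (SE 0.09, edgeR adjusted p 0.469), and without that library 0.22 (adjusted p 0.0472). Ndufa10, an accessory subunit, was at 167, 113 and 120 CPM ad libitum and 146, 140 and 137 CPM under fasting. Its log2 fold change was 0.08 (SE 0.15) with all libraries and 0.27 (edgeR adjusted p 0.0477) without ad libitum replicate 1. Ndufv3, another NADH-arm subunit, was the only member with all fasting libraries above all ad libitum libraries, from 43.4 to 43.8 CPM against 41.0 to 42.5 CPM, a log2 fold change of 0.06 (SE 0.05). Ndufa3 was separated in the other direction, with 41.0 to 45.2 CPM under fasting against 45.2 to 47.7 CPM ad libitum, where the nearest values differ only beyond the digits given (-0.11, SE 0.06). Ndufs3 shares 22.8% and Ndufb4c 100% of its 31-base words with other genes, so the level of Ndufb4c (log2 fold change 0.09) is uncertain. Ndufa3, Ndufa10 and Ndufv3 were chosen after their values were seen.

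The 8 assembly factors had a median log2 fold change of -0.12, with 6 negative, and none had an unadjusted p below 0.05. Ndufaf2 was at 14.9, 14.4 and 13.3 CPM ad libitum and 9.73, 13.8 and 12.2 CPM under fasting (-0.25, SE 0.13). Ndufaf6 was at 5.59, 4.89 and 4.74 CPM ad libitum and 5.66, 6.64 and 5.59 CPM under fasting (0.23, SE 0.12). Ndufaf4, Ndufaf5 and Ndufaf3 stood at -0.14, -0.13 and 0.10. In each of these 5 genes the diets overlapped.

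Complex II, which is also succinate dehydrogenase of the citric acid cycle, was the steadiest group. Sdha, its flavoprotein, was at 463, 447 and 484 CPM ad libitum and 460, 482 and 466 CPM under fasting. Its log2 fold change was 0.01 (SE 0.06, 95% interval -0.12 to 0.15). Sdhb, the iron-sulfur subunit, stood at 0.02, and the membrane anchors Sdhc and Sdhd at -0.02 and -0.03, each with an SE between 0.05 and 0.07. The diets overlapped for all 4 genes.

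In complex III, 6 of 8 nuclear subunits were negative, with a median of -0.07. Uqcr11, one of its smallest subunits, was at 38.1, 39.4 and 34.5 CPM ad libitum and 32.0, 35.0 and 32.3 CPM under fasting. The diets overlapped only between ad libitum replicate 3 and fasting replicate 2, and the log2 fold change was -0.17 (SE 0.07, edgeR adjusted p 0.230). Uqcrh, the hinge protein, stood at -0.12 (SE 0.08) and Uqcrfs1, the Rieske iron-sulfur protein, at -0.06 (SE 0.07). The core proteins Uqcrc1 and Uqcrc2 stood at 0.03 and 0.02.

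Of the 17 nuclear complex IV genes 14 were negative, with a median of -0.04. The ubiquitous isoforms made up most of the level. Cox4i1 was at 341, 337 and 297 CPM ad libitum and 305, 343 and 306 CPM under fasting (-0.03, SE 0.08), and Cox8a, Cox6b1, Cox7a2 and Cox6a1 stood at -0.05, -0.06, -0.07 and -0.09. Cox7a2l, which joins complexes III and IV into supercomplexes, stood at -0.04 (SE 0.08), and Ndufa4 and Cox7b at 0.09 and 0.05. None had an unadjusted p below 0.05.

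The minor isoforms of complex IV lay between 0.705 and 4.42 CPM and had wider intervals than the other genes of the complex. Ndufa4l2, a relative of Ndufa4 induced by hypoxia in other cells, was at 1.97, 2.29 and 1.88 CPM ad libitum and 1.32, 1.53 and 1.62 CPM under fasting. These diets did not overlap, and the log2 fold change was -0.46 (SE 0.17, edgeR adjusted p 0.196). Cox7a1, the heart and muscle isoform, was at 1.23, 1.09 and 1.22 CPM ad libitum and 0.705, 1.04 and 0.746 CPM under fasting (-0.51, SE 0.22, edgeR adjusted p 0.257). Cox4i2, the isoform of oxygen-sensing and vascular cells, stood at -0.37 (SE 0.19), and Cox6b2, the testis isoform, at -0.34 (SE 0.26). Cox6a2, the muscle isoform, was at 4.42, 1.09 and 0.898 CPM ad libitum and 4.28, 1.34 and 2.69 CPM under fasting. Its first replicates of both diets were highest, and the 95% interval of its log2 fold change ran from -1.46 to 2.20. Beside these values, the sum of 7 endothelial and pericyte markers was 268 to 324 CPM ad libitum and 245 to 261 CPM under fasting, with all 7 markers lower and none at 0. edgeR called 0 of them, with 2 at an unadjusted p below 0.05, and DESeq2 called 1, Rgs5 (adjusted p 0.0140, named after its value was seen). Of 5 muscle and brown fat markers Acta1 was at 1.03 to 2.22 CPM, and the others were not analysed here. The part of these cells in the isoform values was not tested.

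In complex V, 11 of 17 subunits were negative, with a median of -0.01. The catalytic subunits were steady. Atp5b was at 1239, 997 and 992 CPM ad libitum and 1103, 1117 and 1071 CPM under fasting, a log2 fold change of 0.03 (SE 0.10), and ad libitum replicate 1 alone lay above the fasting libraries. Atp5a1 stood at 0.06 (SE 0.06). The 3 genes for the identical mature subunit c, Atp5g1, Atp5g2 and Atp5g3, stood at -0.03, 0.07 and -0.01, of which Atp5g2 shares 40.2% of its words with other genes. Atp5e, the epsilon subunit of the central stalk, was the lowest by p. It was at 43.7, 42.9 and 42.3 CPM ad libitum and 35.6, 41.2 and 37.0 CPM under fasting without overlap (-0.18, SE 0.07, edgeR adjusted p 0.197). Atp5mpl, a small membrane subunit, stood at -0.15 (SE 0.08). Atpif1, the inhibitor of the synthase, is outside the rule and stood at 0.11 (SE 0.08). The pseudogene Cox7c-ps1, which shares 72.8% of its words with other genes, was at 1.71 to 3.53 CPM.

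Apart from 2 genes of 4000 bases and over, the nuclear members with short transcripts had the lowest medians, a pattern looked for after the values were seen. Of 21 nuclear members with a transcript under 600 bases 17 were negative (median -0.06), as were 26 of 33 from 600 to below 1000 bases (-0.03) and 16 of 29 from 1000 to below 2000 bases (-0.02). The group under 600 bases includes the pseudogene Cox7c-ps1 (-0.48). The 8 from 2000 to below 4000 bases had a median of 0.02 with 3 negative. The 2 of 4000 bases and over, Ndufb2 and Atp5g1, were both negative (median -0.11), too few to describe a trend. Spearman's rho between length and log2 fold change over the 93 genes, which share the same libraries, was 0.289. It ran from 0.148 without ad libitum replicate 2 to 0.339 without ad libitum replicate 3. Over 18937 other genes rho was -0.00, but the 424 shortest of these, under 600 bases, also had a median of -0.04 with 56.1% negative.

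**Figure D5:**
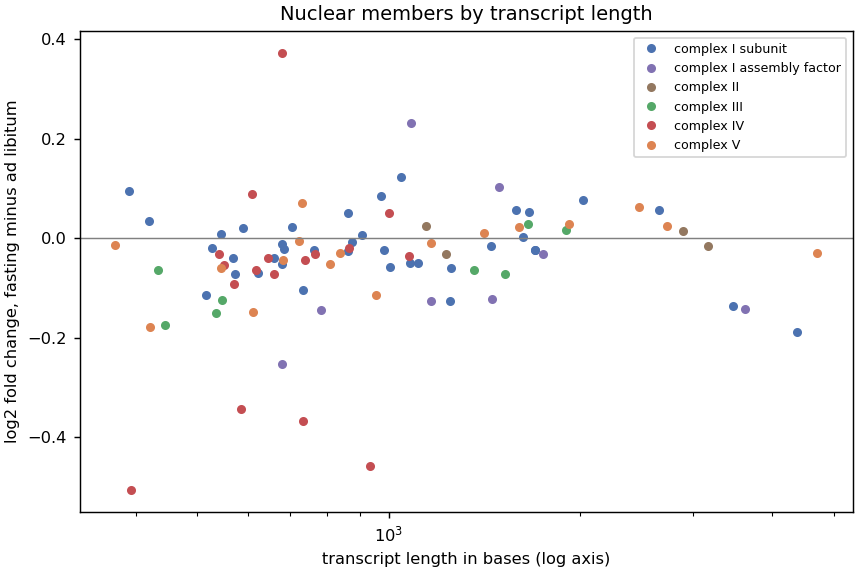
Log2 fold change against transcript length in bases (log axis) for the nuclear genes other than the pseudogene, coloured by complex. Most genes under 1000 bases lie below 0, while those from 2000 to below 4000 bases lie on both sides of it.

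The genes that feed, build and regulate the chain were described from lists, and none of their members was called by edgeR. Of 22 electron carriers and feeders measured, 9 were negative, with a median of 0.02. Cyc1, the cytochrome c1 subunit of complex III, and Cycs, cytochrome c, which carries electrons from complex III to complex IV, stood at -0.03 and -0.07 and were named after their values were seen. Etfa, which passes electrons from fat oxidation, was at 29.3, 29.5 and 31.9 CPM ad libitum and 23.8, 26.8 and 26.3 CPM under fasting (-0.24, SE 0.07, edgeR adjusted p 0.131). Coq10a, a coenzyme Q binding protein, stood at 0.23 (edgeR adjusted p 0.136). Of 49 assembly factors outside the rule 27 were negative (median -0.02). Bcs1l, which inserts the Rieske protein into complex III, stood at -0.29 and Foxred1, a complex I assembly factor, at 0.23, with edgeR adjusted p-values of 0.132 and 0.134.

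Of 34 genes of mitochondrial DNA expression 17 were negative, with a median of 0.00. Tfam, which packages and transcribes mitochondrial DNA, stood at -0.02 (SE 0.06, named after its value was seen). Mgme1, an exonuclease of mitochondrial DNA, was at 6.80, 7.58 and 7.01 CPM ad libitum and 5.30, 5.27 and 5.74 CPM under fasting. Its log2 fold change was -0.39 (SE 0.10) with an edgeR adjusted p of 0.101. Fastkd2, which binds the 16S ribosomal RNA, was at 29.1, 24.6 and 26.1 CPM ad libitum and 21.8, 24.2 and 21.0 CPM under fasting (-0.25, SE 0.09, edgeR adjusted p 0.174). Both had all fasting libraries below all ad libitum libraries.

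Of 13 regulators of respiratory gene transcription 10 were negative, with a median of -0.12, and 5 had an unadjusted p below 0.05 in that direction and 1 in the other, where all genes had 11.6% and 8.74%. Sp1, a zinc finger activator of many housekeeping genes, was at 37.5, 41.0 and 41.8 CPM ad libitum and 32.3, 32.4 and 34.0 CPM under fasting. Its log2 fold change was -0.29 (SE 0.06), with adjusted p-values of 0.0798 by edgeR, 0.0157 by DESeq2 and 0.0302 by edgeR without ad libitum replicate 1. Pprc1, a coactivator related to PGC-1, stood at 0.26 (SE 0.08, edgeR adjusted p 0.135). The other 4 regulators with an unadjusted p below 0.05 were Gabpa (-0.23) and Gabpb2 (-0.25), subunits of an ETS factor, and the nuclear receptors Esrrb (-0.43) and Esrrg (-0.24), with edgeR adjusted p-values from 0.170 to 0.240. Ppargc1a, the coactivator PGC-1 alpha, stood at -0.08 (SE 0.06) and Nrf1, the factor NRF1, at -0.06 (SE 0.08). These 6 genes were named after their values were seen.

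Promoter sequences of the nuclear members are described because each nuclear group was highest in ad libitum replicate 1 and second in fasting replicate 2. The order of the remaining libraries differed between groups, and the part of promoters in it was not tested. RefSeq windows (GRCm38.p6, 250 bases before to 50 after the start) were matched by symbol for 75 of the 93 nuclear members. The palindrome GCGCATGCGC, the core recognised by NRF1, which activates many respiratory genes, was found in 7 of 75 (9.3%), beside 1.8% of 13128 genes of the count table with such a window. The ETS core CCGGAAG, sought on both strands, was in 24.0% against 15.4%, and the YY1 core AAGATGGC in 13.3% against 4.1%. TATAAA was in 8.0% against 7.8% and CACGTG in 8.0% against 9.5%. The motifs do not contain one another. Median GC content was 59.0% for the members and 60.3% for the table. A match is a description of letters and not of binding. Windows of 70 bases around the NRF1 core are given 5′ to 3′ along the gene, with the core in capitals, as examples from complexes IV, I and V.
Cox6a1, chr5:115349081-115349150, - strand: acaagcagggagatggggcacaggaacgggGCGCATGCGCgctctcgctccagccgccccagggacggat
Ndufa11, chr17:56717672-56717741, + strand: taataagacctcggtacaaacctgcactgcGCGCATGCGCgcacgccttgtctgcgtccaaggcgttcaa
Atp5k, chr5:108434410-108434479, - strand: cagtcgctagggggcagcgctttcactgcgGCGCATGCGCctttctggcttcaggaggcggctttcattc
The core begins 162, 60 and 50 bases before the start in these genes. Their log2 fold changes were -0.09, 0.01 and -0.01. By library, Cox6a1 was highest in ad libitum replicate 1 at 144 CPM, against 112 to 138 CPM elsewhere. Ndufa11 was also highest there, at 56.0 CPM against 45.4 to 53.9 CPM elsewhere. Atp5k was highest in ad libitum replicate 2 at 47.0 CPM, with 44.9 CPM in ad libitum replicate 1. Of the other members with the core, Ndufaf4, Ndufaf5 and Uqcrc1 were highest in ad libitum replicate 1. Atp5g2 was lowest there. Ndufa11 and Atp5k were named for these windows, after their values were seen.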

How the data were processed

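The deposited table holds the authors' estimated counts, as whole numbers for 19251 genes in 6 libraries, and every value column was used. The submitters' processing notes name Salmon, DESeq2 1.40.2 and the build GRCm39 (mm39). The sources used here do not give the role and order of these tools, the annotation release or the use of strand in counting. Per the labels' protocols, the kits were RNeasy Lipid Tissue Mini for extraction and NEBNext Ultra II Directional for the libraries.

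From these counts, genes were filtered with filterByExpr (edgeR 4.0.16, R 4.3.3), which left 142 untested, none of them a member. Diets were compared with TMM scaling and the robust quasi-likelihood F test (two-sided, no covariate, 4 residual degrees of freedom), adjusted over all genes by Benjamini-Hochberg and called below 0.05. DESeq2 1.42.0 (unfiltered), limma-voom (limma 3.58.1), other scalings and filters, a replicate block and leaving out each library were alternatives. Deviations by library used a prior count of 0.5. The fits were also run on simulated counts, in which the changed genes had larger folds than any member here. That run does not cover differences as small as those of the members. No pair of libraries within a diet agreed within counting noise (smallest chi-square per degree of freedom 8.28). Counting error is small for genes of high count, and the number of libraries limits precision. It is not small for the minor isoforms of complex IV, such as Cox7a1 with 31 to 58 counts per library.

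Transcript length (the longest principal transcript), 31-base words and mitochondrial positions came from GENCODE M21 (GRCm38, which differs from the build of the files) and promoter windows from RefSeq on GRCm38.p6. Counts per gene do not show which transcript was expressed, so lengths and levels per kilobase may be off for some genes. Named genes were set isoforms and core subunits, all mt- genes, Th, Slc6a3 and Atpif1, and for each complex any called member, up to 2 of smallest p in each direction and the highest level per length. From each pathway list any called gene, or else the 2 of smallest p, was named. Cox8b was not analysed here. The members, lists and rules were chosen with earlier results of these data known.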

Additional observations from a re-analysis of the deposited data

How the results depend on the processing

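The count of respiratory chain genes called by edgeR was 0 in the fit as reported and under limma-voom, DESeq2 size factors, total count scaling, leaving mt- genes out before scaling, both filters and non-robust shrinkage. It was 3 with DESeq2 and 1 with the replicate block (mt-Rnr1, edgeR adjusted p 0.0465). Leaving out each library gave 0 to 5. Over all genes the count called was 95 as reported, 1395 with DESeq2, 32 with limma-voom, 10 with total count scaling, 9 without robust shrinkage, 285 with the replicate block and 0 to 1187 with a library left out. The labels do not say whether equal replicate numbers pair libraries. The correlations of deviations between libraries of equal number were 0.304, -0.00 and -0.14. Between libraries of unequal number they ran from -0.215 to 0.246. The deviations were centred within each diet of 3 libraries, so these values cannot decide whether the numbers mark pairs. The cause of the differences in the number of genes called was not tested. Members whose diets did not overlap numbered 14, and 19 to 40 with a library left out, where fewer libraries are compared. Leaving out ad libitum replicate 1 gave 36 (33.3% of members, beside 46.6% of all genes), ad libitum replicate 3 gave 28 (25.9% beside 36%) and fasting replicate 2 gave 40 (37% beside 39.3%), against 13% beside 27.5% with all libraries.

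The median log2 fold change of the nuclear members ran from -0.08 to 0.01 over the fits that left out a library, and that of the mt- genes from -0.11 to -0.08. The difference in the share of counts in mt- genes kept its sign in all 8 alternatives, from -0.70 to -0.40 percentage points. Of 1109 values of 75 named genes under alternatives, 1094 stayed on the same side of the threshold with the same sign or a shift below 1 SE, 11 were called only under the alternative, and 4 (Cycs, mt-Nd6, Th and Slc6a3) turned sign by more than 1 SE without being called. No value that was called had the opposite sign. With 3 libraries per diet, the median SE was 0.074 for nuclear members. A difference well above its SE could stay uncalled, as for mt-Nd2 with all libraries (-0.20, SE 0.05, edgeR adjusted p 0.105).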
